A study of Mus musculus with 30 samples.

Results

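Multinucleated osteoclast cultures of 20-month-old wild-type mice were compared with those of 6-month-old wild-type mice, over all genes. The members are the 3 libraries of each age whose titles give the age, the wild-type (WT) genotype and the full culture, 6 of 30 libraries in all. Both ages share the C57BL/6J strain and the culture: bone marrow-derived macrophages were given the macrophage growth factor M-CSF at 25 ng/ml and the osteoclast-forming cytokine RANKL at 100 ng/ml in α-MEM with 10% FBS, until large multinucleated cells had appeared. The labels give no fixed day for that endpoint, so donor age and days in culture cannot be told apart from them. The wider study asks whether osteoclasts from donors of different ages, WT or lacking the telomerase RNA gene Terc, differ in gene expression. Its 6 libraries of WT cultures harvested after 2 days of the same cytokines, 3 at 6 and 3 at 20 months, serve here to ask whether an age difference was shared by the earlier stage. Nothing in the labels says that replicates came from separate animals or cultures. Every p-value below therefore reflects scatter between libraries, which could be technical scatter alone. For edgeR that scatter was estimated over all 30 libraries together, not over the 6 compared.

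Osteoclasts arise when macrophage precursors that carry the receptors for M-CSF and RANKL switch on the transcription factor NFATc1, fuse, and build a sealed zone against bone. Into that zone they pump acid through the V-ATPase and release cathepsin K and matrix metalloproteinases. Their number and activity contribute to bone loss in ageing skeletons, and interferons are known to restrain their formation.

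Total counts per library lay between 16621042 and 19969599 in the 6 multinucleated libraries. CPM below are counts scaled to a library of 1000000 after TMM normalization. Values per library are given in the order replicates 1, 2 and 4 at 20 months and replicates 2, 3 and 4 at 6 months. On the first principal component of these 6 libraries, which held 41.5% of the variance, the 6-month libraries lay between -22.8 and -16.9 and the 20-month libraries between 16.8 and 22.9. The share of counts from mitochondrial genes was 3.89% ± 0.117 at 20 months and 4.22% ± 0.129 at 6 months (SD, n = 3 each, exact two-sided permutation p = 0.1, the smallest that 3 against 3 allows).

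The osteoclast label held in both ages. All 11 osteoclast markers were above 5 CPM, and together they reached 24470 to 26260 CPM of the library total at 20 months and 21560 to 23190 CPM at 6 months. Macrophage markers were also abundant, at 10240 to 10700 CPM against 11290 to 11490 CPM, with the lysozyme gene Lyz2 the main contributor. Markers of T and NK cells, neutrophils, mast cells, erythroid cells, dendritic cells and endothelium each summed to at most 23.1 CPM in any library. Of the defining markers, Cd3e, Cd3g, Elane, Hba-a1 and Tpsb2 had 0 counts in all 6 libraries. Stromal cell markers were present. The 6 of them summed to 1785 to 2063 CPM of the library total at 20 months and to 754 to 968 CPM at 6 months, nearly all of it from the collagen genes Col1a1 and Col1a2. Dcn went the other way (7.82 to 11.97 CPM against 31.6 to 39.9 CPM), Pdgfra overlapped between ages, and Lum had 3 counts in all. In bulk RNA, fewer cells of a type and less RNA per cell cannot be told apart.

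Of 15310 genes tested, 1132 were higher at 20 months (7.39%) and 1056 were lower (6.90%), by edgeR's quasi-likelihood test at a Benjamini-Hochberg adjusted p under 0.05. Most differences were small. The median size of the called log2 fold changes was 0.34, and the median over all tested genes was -0.01. More than 2-fold differences were mostly upward, with 191 genes higher and 37 lower. When the test required a fold above 1.5, 76 higher and 9 lower genes passed. DESeq2, which gave an adjusted p for 12717 genes, called 1098 higher (8.63%) and 1122 lower (8.82%). Without 1 library at a time, the higher genes numbered 779 to 1040 and the lower genes 560 to 907.

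The main biological pattern was one of separate gene groups moving in opposite directions. Beside them, 17 of 22 bone resorption genes did not pass the test, and the median log2 fold change of that list was -0.03. Most of the tested interferon-stimulated genes, genes of glycolysis and the hypoxia response and stromal matrix genes were higher at 20 months, as were 5 of 13 genes of MHC class II presentation. Most genes of the NRF2 antioxidant response, ribosome biogenesis and S phase were lower, as were 14 of 30 genes of G2 and mitosis. The plot of list shares sets each group beside the share of all genes that changed.

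**Figure D1:**
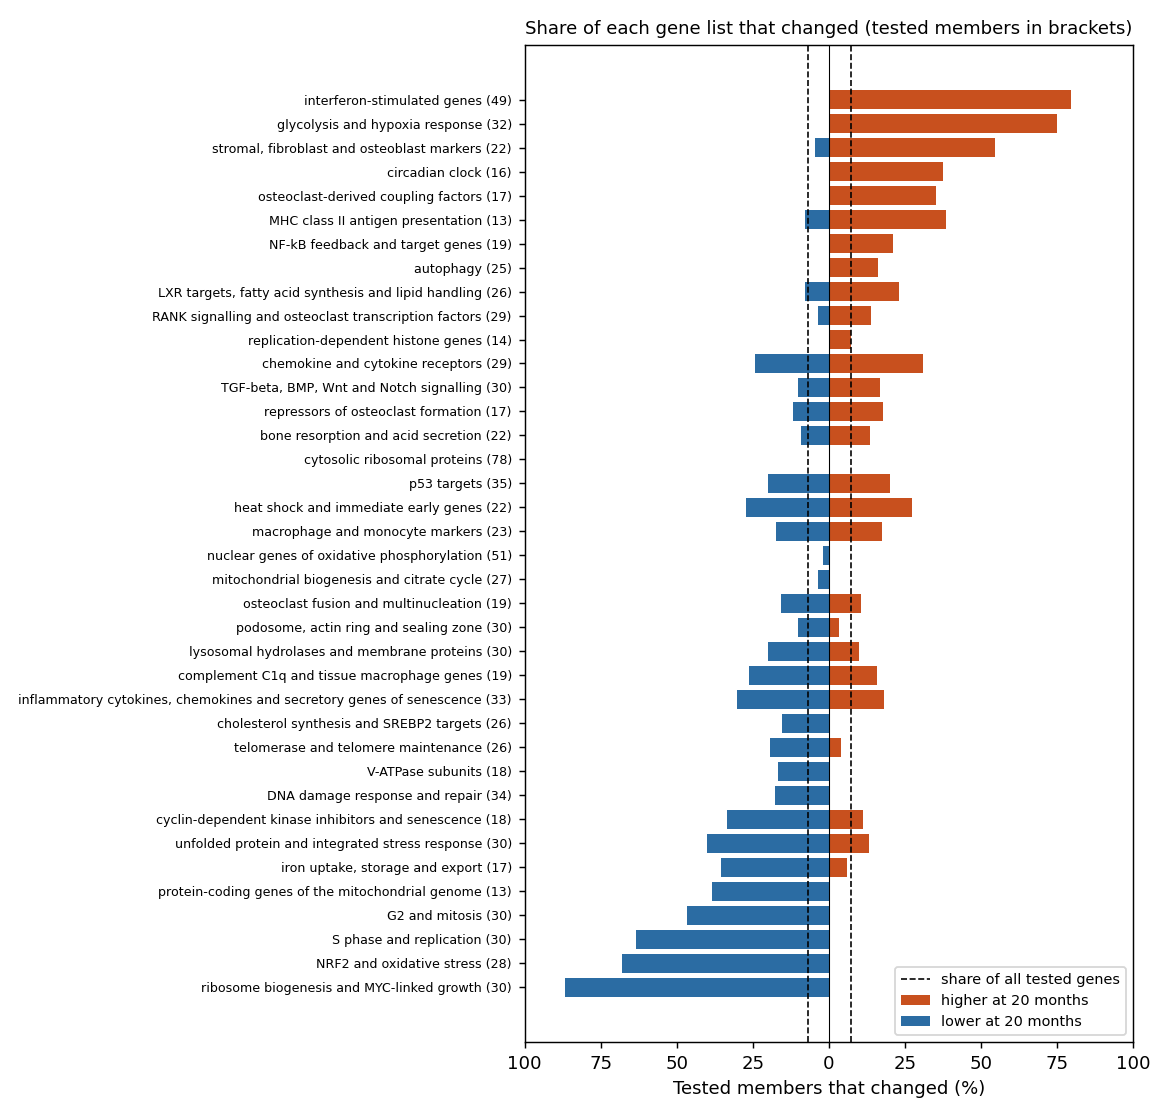
Share of the tested members of each gene list that were higher (orange, to the right) or lower (blue, to the left) at 20 than at 6 months in multinucleated cultures, with the number of tested members in brackets. Dashed lines mark the shares among all 15310 tested genes, 7.39% higher and 6.90% lower, and the bars of interferon-stimulated genes (39 of 49 higher) and ribosome biogenesis (26 of 30 lower) reach farthest past them.

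The osteoclast effector genes were abundant at both ages, and most of them did not pass the test. Of 22 tested genes of bone resorption and acid secretion, 3 rose (13.6%) and 2 fell (9.09%), with a median log2 fold change of -0.03. The shares of all tested genes were 7.39% and 6.90%, so resorption genes were called no less often than other genes. The count that rose was 1 without 6-month replicate 4, and the count that fell was 1 without 6-month replicate 3, 6-month replicate 4, 20-month replicate 1 or 20-month replicate 4. Of 30 tested genes of podosomes and the sealing zone, 1 rose (3.33%) and 3 fell (10%), with a median of -0.01. The count that fell was 1 without 20-month replicate 1. None rose without 6-month replicate 3, 6-month replicate 4, 20-month replicate 1 or 20-month replicate 4. Ctsk, the collagen-degrading protease of osteoclasts (chromosome 3, 95499256-95509362, plus strand), stood at 6620, 6843 and 7322 CPM at 20 months and at 6554, 6475 and 6402 CPM at 6 months. The 20-month libraries were all higher, but by 0.10 ± 0.08 on the log2 scale, which did not pass the test (edgeR adjusted p = 0.46). Ctsk did pass when edgeR was fitted on the 6 libraries alone. In that fit 5 resorption genes rose and 3 fell, and 5 podosome genes rose and 5 fell. Acp5, the tartrate-resistant acid phosphatase, and Calcr, the calcitonin receptor, overlapped between ages, with log2 differences of 0.06 ± 0.08 and -0.02 ± 0.08 (edgeR adjusted p = 0.67 and 0.93). In the fit of all 30 libraries, the resorption genes that rose were Mmp9, Mmp14 and Src. Those that fell were Itgav and a V-ATPase subunit, Atp6v1c1. Mmp9, a matrix metalloproteinase that osteoclasts secrete (chromosome 2, 164940780-164955850, plus strand), was at 10300, 10740 and 11010 CPM against 9641, 9152 and 8369 CPM, with no overlap between ages. It rose by 0.24 ± 0.06 (edgeR adjusted p = 0.0065), a call that was lost without 6-month replicate 4. Mmp14, a membrane-bound collagenase, rose by 0.49 ± 0.06 (edgeR adjusted p = 1.6e-07), from 294 ± 21.9 to 414 ± 12.1 CPM (SD, n = 3). Stromal cells also express Mmp14. Of the 6 stromal markers 2 rose (Col1a1 and Col1a2) and 1 fell (Dcn) in the same libraries, and the part of stromal cells in the Mmp14 value was not tested. Itgav, the alpha chain of the vitronectin receptor, fell by 0.30 ± 0.07 (edgeR adjusted p = 0.0043), while its beta chain Itgb3 differed by -0.03 ± 0.06 (edgeR adjusted p = 0.8).

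Some genes of fusion and acid secretion changed. Dcstamp, the receptor needed for fusion of precursors (chromosome 15, 39745932-39760934, plus strand), was at 345, 402 and 390 CPM at 20 months and at 456, 486 and 474 CPM at 6 months. Every 20-month library was below every 6-month library, and Dcstamp fell by 0.32 ± 0.06 (edgeR adjusted p = 0.00055). Its partner Ocstamp was lower by 0.16 ± 0.08, which did not pass (edgeR adjusted p = 0.17). In the fusion list of 19 tested genes, 2 rose (10.5%) and 3 fell (15.8%), against 7.39% and 6.90% of all tested genes. None rose without 6-month replicate 3, 20-month replicate 1 or 20-month replicate 4. The other members that fell were Adam8, a membrane metalloproteinase (-0.36 ± 0.05), and the hyaluronan receptor Cd44 (-0.19 ± 0.05, no longer past the threshold without 20-month replicate 1). Of 18 tested V-ATPase subunits, 3 fell (16.7%) and none rose, with a median of -0.08. Atp6v1h, a subunit of the ATP-hydrolysing part of the pump, fell by 0.29 ± 0.06, and the osteoclast-enriched subunit Atp6v0d2 differed by 0.00 ± 0.06 (edgeR adjusted p = 0.99). Without 1 library at a time 1 to 3 subunits fell. Only 1 was left without 6-month replicate 3, 6-month replicate 4, 20-month replicate 1 or 20-month replicate 4. When edgeR was fitted on the 6 libraries alone, 6 subunits fell, and in the fusion list 3 genes rose and 5 fell. Lysosomal genes were mixed, with 3 of 30 higher and 6 lower, the latter falling to 3 without 6-month replicate 3 or 20-month replicate 4. Cathepsin L (Ctsl) fell by 0.34 ± 0.07 and acid lipase (Lipa) by 0.23 ± 0.05, whereas cathepsin S (Ctss), a protease of antigen presentation, rose by 0.26 ± 0.06. A gene on the opposite strand overlaps 26.8% of the exonic bases of Ctsl, and the counting recorded no strand, so its value is uncertain.

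Some regulators of osteoclast formation passed the test, in both directions. Of 29 tested genes of RANK signalling and osteoclast transcription, 4 rose (13.8%) and 1 fell (3.45%), with a median of 0.05. Of 17 tested repressors, 3 rose (17.65%) and 2 fell (11.8%), with a median of 0.02. Among all tested genes 7.39% rose and 6.90% fell, and counts this small do not set these lists apart. The 4 became 2 without 6-month replicate 3 or 20-month replicate 4 and 1 without 6-month replicate 4 or 20-month replicate 1, and the 3 repressors became 1 without 6-month replicate 3 or 20-month replicate 2. The receptor of RANKL, Tnfrsf11a, was at 289, 291 and 279 CPM against 296, 283 and 294 CPM, an overlapping spread with a log2 difference of -0.02 ± 0.06 (edgeR adjusted p = 0.85). Csf1r, the M-CSF receptor, was higher in all 20-month libraries by 0.12 ± 0.04 but did not pass (edgeR adjusted p = 0.073). It passed by DESeq2 and when edgeR was fitted on the 6 libraries alone. A gene on the opposite strand overlaps 15.1% of the exonic bases of Csf1r. Nfatc1, the master transcription factor of osteoclasts, was at 383, 353 and 357 CPM against 307, 335 and 306 CPM. It rose by 0.21 ± 0.07 (edgeR adjusted p = 0.046), a call lost without any 1 of 5 of the 6 libraries, the exception being 6-month replicate 3. Rcan1, an NFAT target gene that feeds back on calcineurin, went the other way and fell by 0.53 ± 0.06 (edgeR adjusted p = 4.1e-08). Src, the kinase of the actin ring, rose by 0.19 ± 0.06 and Mitf, a transcription factor of osteoclasts, fell by 0.25 ± 0.07. Neither Src nor Mitf passed without 6-month replicate 3, 6-month replicate 4, 20-month replicate 1 or 20-month replicate 4. The transcription factor genes Prdm1, Bhlhe40 and Fosl2 rose by 0.25 ± 0.08, 0.23 ± 0.05 and 0.21 ± 0.06. The Prdm1 call was lost without any 1 of the same 4 libraries, and the Fosl2 call without 6-month replicate 3, 6-month replicate 4 or 20-month replicate 1. In the list of repressors, Ndrg1 rose by 0.61 ± 0.11 and Zfp36, which encodes an RNA-destabilizing protein, by 0.31 ± 0.09, whereas Id1, an inhibitor of helix-loop-helix factors, fell by 0.45 ± 0.13. Zfp36 did not pass without 6-month replicate 3 or 20-month replicate 2, nor Id1 without 6-month replicate 2, 6-month replicate 3 or 20-month replicate 4. The repressor Irf8 differed by -0.07 ± 0.07 and did not pass (edgeR adjusted p = 0.6). Car2 and Oscar, carbonic anhydrase II and an immunoglobulin-like co-receptor, were higher in all 20-month libraries by 0.09 ± 0.07 and 0.17 ± 0.09 without passing (edgeR adjusted p = 0.48 and 0.21).

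**Figure D2:**
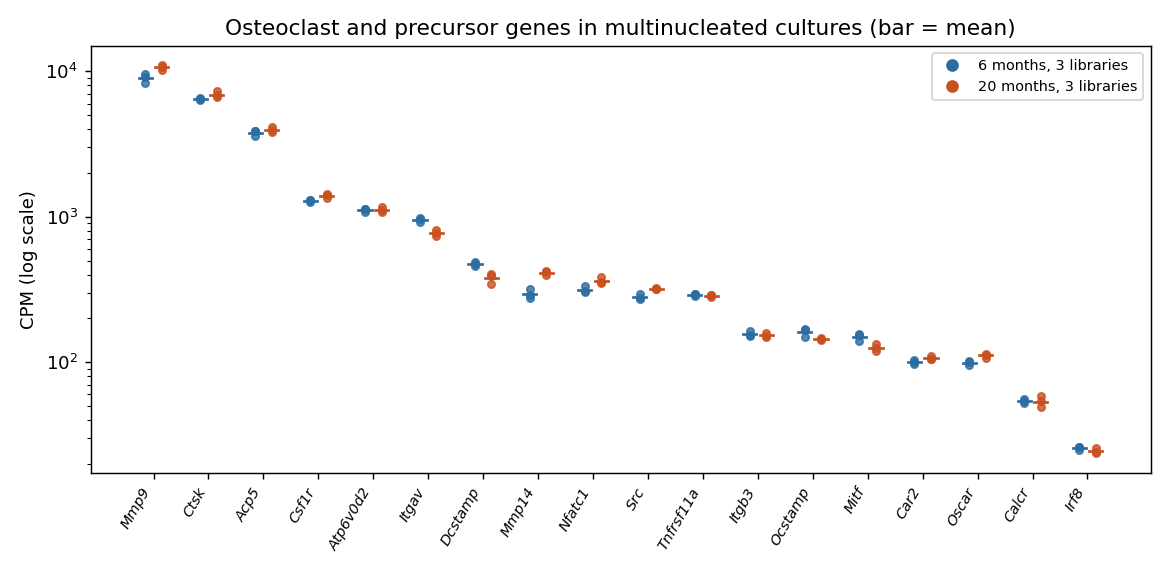
TMM-scaled CPM (log scale) of osteoclast effector, receptor and regulator genes in each multinucleated library, 6 months in blue and 20 months in orange, with the mean as a bar. Ctsk and Acp5 lie close together at both ages, Mmp14 is higher at 20 months (414 against 294 CPM), and Dcstamp is lower (379 against 472 CPM).

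Interferon-stimulated genes rose broadly. Of 49 tested members, 39 were higher and none lower (edgeR, also 0 lower at an unadjusted p under 0.05), and the median log2 fold change was 0.55. The count was 25 to 39 without 1 library at a time, the lowest without 20-month replicate 1. Relative to the mean of the 6-month libraries, the mean log2 level of the list was 0.84, 0.46 and 0.40 in the 20-month libraries and 0.03, -0.12 and 0.09 in the 6-month libraries. The ages did not overlap, and 20-month replicate 1 was highest. Irf7, the transcription factor that amplifies interferon production (chromosome 7, 141262706-141266481, minus strand), was at 64.3, 43.8 and 45.6 CPM against 22.4, 20.8 and 28.4 CPM. It was 2.14-fold higher (log2 1.10 ± 0.15, edgeR adjusted p = 1.7e-06). Ifi44, an interferon-induced antiviral protein (chromosome 3, 151730922-151749960, minus strand), was at 10.1, 6.06 and 6.47 CPM against 2.45, 2.83 and 3.44 CPM, and 2.56-fold higher (log2 1.36 ± 0.21). Oasl1, an oligoadenylate synthetase-like protein, rose by 1.10 ± 0.20, and Zbp1, a sensor of left-handed nucleic acids, by 0.94 ± 0.18. The 10 members that did not pass included, picked after their values were seen, Rsad2 (0.55, edgeR adjusted p = 0.19), Cxcl10 (0.51, 0.19) and Mx1 (0.50, 0.36).

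Promoters of the interferon list often held the letters of the interferon response element, the site read by IRF and STAT factors. The window was 250 bases before to 50 bases after each start of a gene (RefSeq, GRCm38.p6). The letters searched on both strands were GAAA and, after any 2 bases, GAAA again. They were present in 24 of 44 promoters of tested list members (54.5%), against 3.25% of the promoters of all tested genes, 7.54% of genes that were higher at 20 months and 2.83% of genes that were lower. Of the 39 members that rose, 29 had a promoter in the table and 17 of these held the letters. Irf7, Ifi44, Oasl1 and Zbp1 were not among the 17. The stretches below belong to the 4 risen members with the largest fold change among those with a match before the start, shown because the letters recur across the group. These genes and those of the later promoter sets were chosen after the values were seen. Each is written 5′ to 3′ on the strand of its gene, with the matches in capitals. A match on the opposite strand reads TTTC, any 2 bases, TTTC.
Ifit1, chr19:34640745-34640853, plus strand: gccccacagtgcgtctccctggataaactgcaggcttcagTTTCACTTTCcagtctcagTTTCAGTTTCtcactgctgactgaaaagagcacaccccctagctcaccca
Slfn5, chr11:82951907-82951996, plus strand: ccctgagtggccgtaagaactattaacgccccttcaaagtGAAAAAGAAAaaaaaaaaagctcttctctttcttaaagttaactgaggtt
Oas3, chr5:120777685-120777774, minus strand: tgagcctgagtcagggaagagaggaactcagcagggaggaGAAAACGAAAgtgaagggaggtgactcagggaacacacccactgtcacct
Isg15, chr4:156200835-156200936, minus strand: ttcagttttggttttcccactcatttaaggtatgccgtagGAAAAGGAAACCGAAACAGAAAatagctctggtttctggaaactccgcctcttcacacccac
The promoter of Isg15 held 3 overlapping matches, that of Ifit1 held 2, and those of Slfn5 and Oas3 held 1 each. Ifit1, an RNA-binding antiviral protein, rose by 0.84 ± 0.21, Slfn5 by 0.70 ± 0.10, Oas3, an oligoadenylate synthetase, by 0.67 ± 0.12, and Isg15, a ubiquitin-like modifier, by 0.66 ± 0.21 on the log2 scale. Isg15 did not pass without 6-month replicate 2, 6-month replicate 3 or 20-month replicate 1, and Ifit1 did not pass without 20-month replicate 1. A match of letters is a description and not evidence of binding.

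Some genes of MHC class II presentation rose, mostly from low levels. Of 13 tested members of the list, 5 rose, 1 fell and 7 did not pass (median 0.22). The median was 0.12 without 6-month replicate 4, and none fell without 6-month replicate 3, 6-month replicate 4, 20-month replicate 1 or 20-month replicate 4. H2-Ab1, a class II beta chain (chromosome 17, 34263209-34269418, plus strand), was at 10.1, 8.58 and 9.06 CPM against 3.27, 3.51 and 2.57 CPM. All 20-month libraries were above all 6-month libraries, by 2.98-fold (log2 1.57 ± 0.17, edgeR adjusted p = 2.6e-08). The alpha chain H2-Aa rose by 1.32 ± 0.20, and the invariant chain Cd74, which guides class II molecules to the lysosome, rose by 1.06 ± 0.10 from 26.7 ± 2.47 to 55.6 ± 5.65 CPM (SD, n = 3). B cells also express these genes. Their 4 defining markers together summed to 1.30 to 3.60 CPM of the library total at 20 months against 0.161 to 0.301 CPM at 6 months, mostly from Igkc, an immunoglobulin light chain gene. Dendritic cell markers summed to 3.84 to 4.56 CPM against 4.30 to 5.51 CPM. The part of such cells in the class II values was not tested.

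Most genes of glycolysis and the hypoxia response rose. Of 32 tested members, 24 were higher and none lower (edgeR, also 0 lower at an unadjusted p under 0.05), with a median of 0.32, and 19 to 25 were higher without 1 library at a time, the highest without 6-month replicate 2. The list stood at 0.27, 0.46 and 0.46 in the 20-month libraries and at 0.22, -0.08 and -0.13 in the 6-month libraries, relative to the 6-month mean. Thus 6-month replicate 2 lay apart from the other two 6-month libraries and close to 20-month replicate 1. Egln3, the oxygen-sensing prolyl hydroxylase that is itself induced by hypoxia (chromosome 12, 54178981-54203860, minus strand), showed this most clearly, at 23.1, 34.2 and 33.3 CPM against 21.1, 7.23 and 7.02 CPM. The ages did not overlap, and Egln3 was 2.61-fold higher (log2 1.38 ± 0.21, edgeR adjusted p = 1.2e-05). The log2 difference was 2.08 without 6-month replicate 2 and 1.11 to 1.54 without any other single library. P4ha2, a collagen prolyl hydroxylase subunit (chromosome 11, 54100095-54131665, plus strand), was at 42.9, 50.1 and 56.0 CPM against 27.2, 20.7 and 21.8 CPM, 2.15-fold higher (log2 1.10 ± 0.10, edgeR adjusted p = 1e-09). Vegfa, the angiogenic factor (chromosome 17, 46016993-46032369, minus strand), was at 92.0, 121.6 and 124.1 CPM against 84.49, 59.96 and 56.84 CPM. It rose by 0.75 ± 0.10 (edgeR adjusted p = 2e-06). The mTORC1 inhibitor Ddit4 rose by 0.92 ± 0.20 and the mitophagy receptor Bnip3 by 0.86 ± 0.13. A gene on the opposite strand overlaps 22.3% of the exonic bases of Bnip3. The transcript of the oxygen-regulated factor itself, Hif1a, differed by -0.08 (edgeR adjusted p = 0.41).

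In the same promoter windows the letters ACGTGC, the core of the hypoxia response element, stood in 15 of 43 promoters of the tested list members (34.9%), against 7.80% of the promoters of all tested genes, 6.76% of higher and 9.07% of lower genes. This motif and the antioxidant one further on were chosen after the values were seen. The 3 risen members with the largest fold change among those with a match before a start are shown. The shared letters can thus be read in place. Egln3 and Vegfa were not among the members with a match. The match in P4ha2 lies 72 bases before a RefSeq start inside the gene span given above. Capitals mark ACGTGC or, on the opposite strand, GCACGT.
P4ha2, chr11:54100806-54100891, plus strand: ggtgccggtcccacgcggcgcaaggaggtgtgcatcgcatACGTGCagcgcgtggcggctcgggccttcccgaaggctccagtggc
Ddit4, chr10:59951912-59951997, minus strand: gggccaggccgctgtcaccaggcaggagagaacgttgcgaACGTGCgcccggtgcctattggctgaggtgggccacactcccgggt
Bnip3, chr7:138909568-138909655, minus strand: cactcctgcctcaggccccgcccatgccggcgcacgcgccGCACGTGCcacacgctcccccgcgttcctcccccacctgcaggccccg
The 2 matches in Bnip3 lie on opposite strands and overlap, so that they also spell the E-box CACGTG.

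Most genes of the NRF2 antioxidant response were lower at 20 months. Of 28 tested members, 19 fell and none rose (edgeR, also 0 higher at an unadjusted p under 0.05), with a median of -0.28, and 16 to 18 fell without 1 library at a time. The list stood at -0.36, -0.34 and -0.35 in the 20-month libraries and at -0.04, 0.07 and -0.03 in the 6-month libraries, a gap far wider than the spread within either age. Hmox1, the haem-degrading oxygenase (chromosome 8, 75093621-75100589, plus strand), was at 224, 256 and 247 CPM against 423, 402 and 362 CPM. It fell by 0.71 ± 0.07 (edgeR adjusted p = 1.6e-09). Nqo1, a quinone reductase (chromosome 8, 107388225-107403206, minus strand), was at 5.68, 7.24 and 9.30 CPM against 10.2, 14.8 and 11.6 CPM. Its ages also did not overlap, and it fell by 0.72 ± 0.13 (edgeR adjusted p = 0.00012). Gsta3, a glutathione transferase, fell by 0.83 ± 0.12, Osgin1, an oxidative stress-induced growth inhibitor, by 0.63 ± 0.08, Gclm, the modifier subunit of glutathione synthesis, by 0.43 ± 0.05, and the peroxiredoxin Prdx1 by 0.37 ± 0.07. Iron handling overlapped with this list. Of 17 tested iron genes, 6 fell and 1 rose, among them the ferritin heavy chain Fth1, which fell by 0.41 ± 0.07 from 2990 ± 204.5 to 2245 ± 16.5 CPM (SD, n = 3).

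The letters TGACNNNGC of the antioxidant response element, searched on both strands, stood in 9 of 32 promoters of the tested NRF2 list members (28.1%), 14.3% of the promoters of all tested genes, 12.9% of higher and 15.7% of lower genes. The 3 fallen members with the largest change among those with a match before a start are given for comparison with the interferon and hypoxia groups. Hmox1, Nqo1 and Osgin1 were not among the members with a match. Capitals mark the match, which on the opposite strand reads GC, any 3 bases, GTCA.
Gsta3, chr1:21240424-21240512, plus strand: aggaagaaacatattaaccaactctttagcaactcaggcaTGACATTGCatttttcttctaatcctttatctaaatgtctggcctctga
Gclm, chr3:122245383-122245471, plus strand: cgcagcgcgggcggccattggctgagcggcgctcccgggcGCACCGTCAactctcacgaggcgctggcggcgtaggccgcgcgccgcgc
Prdx1, chr4:116685426-116685514, plus strand: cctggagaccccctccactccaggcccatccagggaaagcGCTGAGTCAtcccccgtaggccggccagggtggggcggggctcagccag

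Many growth and division genes fell by small steps. Of 30 tested genes of ribosome biogenesis and MYC-linked growth, 26 fell and none rose (edgeR, also 0 higher at an unadjusted p under 0.05), with a median of -0.29, and 15 to 26 fell without 1 library at a time, the lowest without 20-month replicate 4. Nop56, a core protein of the small nucleolar ribonucleoprotein that methylates ribosomal RNA (chromosome 2, 130274430-130279313, plus strand), was at 122.6, 132 and 117.5 CPM against 154.7, 164.5 and 160.5 CPM. It fell by 0.37 ± 0.06 (edgeR adjusted p = 2.1e-05), and no library of one age reached the other. Odc1, the first enzyme of polyamine synthesis, fell by 0.39 ± 0.05, and the nucleolar phosphoprotein Nolc1 by 0.35 ± 0.05. The genes of the finished ribosome did not share this. Of 78 tested ribosomal protein genes, 0 rose or fell (median -0.02, edgeR, with 0 at an unadjusted p under 0.05 and 0 by DESeq2). When edgeR was fitted on the 6 libraries alone, 1 rose and 3 fell. Of 30 genes of S phase, 19 fell (median -0.27), and of 30 genes of G2 and mitosis, 14 fell (median -0.19), with none higher in either list. These counts depended on single libraries. Without 20-month replicate 4 they were 8 and 4. G2 and mitosis counted 6 without 6-month replicate 4 and 7 without 20-month replicate 1. The replication licensing genes Cdc6 and Mcm5 fell by 0.40 ± 0.08 and 0.37 ± 0.06, and the mitotic cyclin Ccnb1 by 0.30 ± 0.05. The shares of dividing precursors and of fused cells in each culture were not measured.

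Genes tied to ageing by their names did not move as 1 block. Cdkn2a, which encodes the cell cycle inhibitor p16 and the ARF protein (chromosome 4, 89274471-89294653, minus strand), was at 7.18, 8.84 and 8.10 CPM at 20 months and at 14.5, 13.7 and 15.1 CPM at 6 months. The older cultures thus held less of it without overlap, and Cdkn2a fell by 0.84 ± 0.13 (edgeR adjusted p = 2e-05). Cdkn1a (p21) overlapped between ages (-0.03 ± 0.05, edgeR adjusted p = 0.75), and Cdkn1b (p27) rose by 0.43 ± 0.08. Among 18 tested inhibitors and other senescence genes, 2 rose and 6 fell. Of 35 p53 targets, 7 rose and 7 fell (median -0.01). The risen targets numbered 4 without 6-month replicate 3, and the fallen ones 4 without 6-month replicate 3 or 20-month replicate 4 and 3 without 6-month replicate 4 or 20-month replicate 1. Of 34 DNA repair genes, 6 fell, and 4 fell without 20-month replicate 2 and 1 or 2 without any other single library. In the telomere list, 1 of 26 rose and 5 fell, or 3 without 6-month replicate 3 or 20-month replicate 4. Dkc1, the telomerase-associated protein dyskerin, which also serves ribosome biogenesis, fell by 0.37 ± 0.06 (edgeR adjusted p = 2.6e-05). Tert, the telomerase protein, had 23 counts at 20 months and 17 at 6 months summed over 3 libraries, and no difference was detectable at this depth (0.39 ± 0.52, edgeR adjusted p = 0.7). Terc was counted 1 time at 20 months and 0 times at 6 months in this polyadenylated RNA, where 0 counts allow up to 3 over the group (0.0544 CPM), and it was not tested. Of 13 protein-coding genes of the mitochondrial genome, 5 fell (median -0.20), including mt-Nd4 by 0.26 ± 0.05. Of 51 nuclear genes of oxidative phosphorylation 1 fell (median -0.06), and 12 fell when edgeR was fitted on the 6 libraries alone and 3 by DESeq2.

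**Figure D3:**
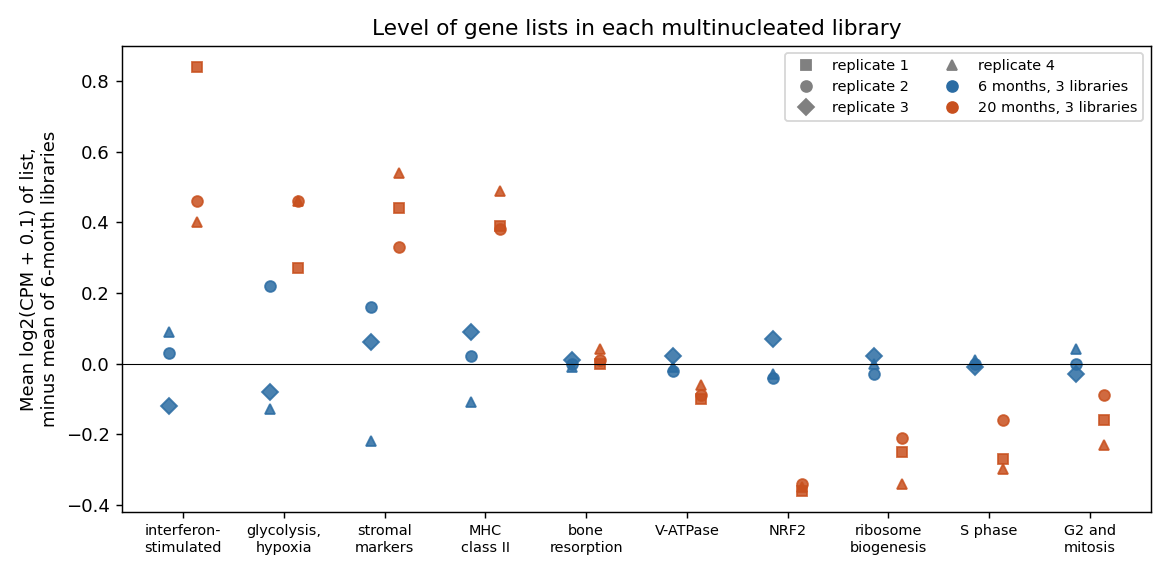
Mean log2(CPM + 0.1) of selected gene lists in each multinucleated library, minus the mean of the 6-month libraries, in blue for 6 and orange for 20 months, with symbols for replicate numbers. Interferon-stimulated genes are highest in 20-month replicate 1 (0.84), glycolysis and hypoxia genes of 6-month replicate 2 (0.22) lie near those of 20-month replicate 1 (0.27), and the 20-month NRF2 values lie between -0.36 and -0.34.

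Inflammatory genes were more often lower than higher. In the list of cytokines, chemokines and secretory genes of senescence, 10 of 33 tested members fell and 6 rose (median -0.17). The monocyte-attracting chemokine Ccl2 (chromosome 11, 82035571-82037453, plus strand) was at 17.5, 25.8 and 16.2 CPM against 42.7, 46.8 and 49.4 CPM. It was 2.34-fold lower at 20 months (log2 -1.23 ± 0.14, edgeR adjusted p = 7e-08), with no overlap. The chemokines Ccl7 and Ccl4 fell by 1.34 ± 0.23 and 1.00 ± 0.18. Scavenger and pattern receptors of macrophages also split. Marco, a scavenger receptor for bacteria (chromosome 1, 120474538-120505024, minus strand), was at 18.9, 28.3 and 21.6 CPM against 69.8, 62.2 and 59.9 CPM, 2.79-fold lower (log2 -1.48 ± 0.13, edgeR adjusted p = 3.9e-10). The fractalkine receptor Cx3cr1 rose by 1.09 ± 0.10, the beta-glucan receptor Clec7a by 0.61 ± 0.10 and the chemokine receptor Cxcr4 by 1.14 ± 0.10. In the macrophage list as a whole, 4 of 23 rose and 4 fell.

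Many stromal matrix genes rose. Of 22 tested stromal, fibroblast and osteoblast markers, 12 rose, 1 fell and 9 did not pass (median 0.59), and 11 to 13 rose without 1 library at a time, with 2 fallen without 6-month replicate 4. Col1a1, a chain of type I collagen (chromosome 11, 94936224-94953042, plus strand), was at 962, 848 and 967 CPM against 428, 364 and 310.0 CPM, 2.52-fold higher without overlap (log2 1.34 ± 0.09, edgeR adjusted p = 5.3e-13). Its partner chain Col1a2 rose by 1.13 ± 0.07 and Col5a1 by 0.81 ± 0.08. The member that fell was Dcn, the matrix proteoglycan decorin and itself a stromal marker (chromosome 10, 97479609-97518143, plus strand), at 7.44, 9.92 and 11.4 CPM against 30.7, 35.4 and 38.5 CPM. It was 3.63-fold lower at 20 months (log2 -1.86 ± 0.11, edgeR adjusted p = 1.2e-13). Outside the list, the secreted factors Igfbp5, a binding protein of insulin-like growth factors, and Sfrp4, a Wnt antagonist, fell too, by 1.14 ± 0.16 and 1.28 ± 0.23. Among 17 tested factors by which osteoclasts are thought to signal to osteoblasts, 6 rose and none fell. The count that rose was 4 without 6-month replicate 4 or 20-month replicate 4. Without 6-month replicate 4 1 factor fell, as also by DESeq2 and when edgeR was fitted on the 6 libraries alone. The 6 that rose included the complement protein C3 (0.44 ± 0.07), Vegfa and the chemokine Cxcl16 (0.29 ± 0.07, a call lost without 20-month replicate 4). They are named here after their values were seen. A gene on the opposite strand overlaps 18.3% of the exonic bases of Cxcl16. In the list of TGF-beta, BMP, Wnt and Notch signalling, 5 of 30 rose and 3 fell, a count of 1 without 6-month replicate 3 or 20-month replicate 4. The ligand Wnt5a rose by 1.09 ± 0.15 and the BMP receptor Bmpr1a by 1.08 ± 0.09. Stromal cells can express several of these genes, and the part of stromal cells in their values was not tested.

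Further lists covered lipids, stress responses and the clock. Of 26 genes of LXR and lipid handling, 6 rose and 2 fell, with the cholesterol exporter Abca1 up by 0.70 ± 0.11 and the desaturase Scd2 by 0.83 ± 0.12. Of 30 genes of the unfolded protein and integrated stress response, 12 fell and 4 rose, and 7 fell without 6-month replicate 3. Sdf2l1, a chaperone cofactor, fell by 0.40 ± 0.08, and Phgdh, the first enzyme of serine synthesis, rose by 1.13 ± 0.13. Heat shock and immediate early genes split 6 to 6 of 22, with the growth-factor-induced Egr1 up by 1.04 ± 0.12. Of 16 clock genes, 6 rose and none fell. Dbp, an output factor of the clock, rose by 0.73 ± 0.12, and a gene on the opposite strand overlaps 18% of its exonic bases. The hour of harvest is not given in the labels.

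Several of the genes with the largest differences belonged to none of these lists. Cdsn, which encodes the adhesion protein corneodesmosin of skin (chromosome 17, 35552128-35557180, plus strand), was at 7.39, 5.04 and 8.58 CPM against 1.40, 1.57 and 1.45 CPM. Its 4.74-fold rise was the largest among called genes of at least 5 CPM in either age that did not overlap and have no predicted-gene name (log2 2.24 ± 0.24, edgeR adjusted p = 2.6e-08). The water channel Aqp1 rose by 1.89 ± 0.20, the ubiquitin ligase Mid1 by 1.80 ± 0.21 and Aldh1l2, a mitochondrial enzyme of folate metabolism, by 1.73 ± 0.15. A gene on the opposite strand overlaps 14.2% of the exonic bases of Mid1, and another overlaps 14.1% of those of Aldh1l2. Col2a1, a cartilage collagen, rose by 1.54 ± 0.09, the metalloproteinase Adamts1 by 1.35 ± 0.12, the vesicle-docking protein gene Sytl2 by 1.36 ± 0.18, and Arhgef18, an activator of small GTPases, by 1.29 ± 0.12. The class I genes H2-Q7 and H2-Q6, which are near-identical copies whose reads can be split or lost, rose by 1.43 ± 0.19 and 1.37 ± 0.19. On the lower side stood Nptx1, a neuronal pentraxin, at -1.18 ± 0.16, Rnf183 at -1.01 ± 0.14, Serpinb9b at -0.95 ± 0.13, Acsbg1 at -0.95 ± 0.12, alpha-fetoprotein (Afp) at -0.88 ± 0.15, and Cd207, the lectin langerin, at -0.86 ± 0.08. The small RNA genes Rpph1 (-1.03 ± 0.20) and mt-Te (-0.93 ± 0.21) also fell. An overlapping gene shares 73% of the exonic bases of Rpph1, and libraries of polyadenylated RNA are not made for such transcripts.

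The cultures harvested after 2 days allowed the same age comparison at an earlier stage. At 2 days, 1145 genes were higher (7.48%) and 1735 lower (11.3%) at 20 than at 6 months. Of the 1132 genes that were higher in multinucleated cultures, 234 were also higher at 2 days and 315 were lower. Of the 1056 lower genes, 257 were lower at 2 days and 51 were higher. The shared genes were 20.7% of those higher in multinucleated cultures and 20.4% of those higher at 2 days, and 24.3% and 14.8% of the lower ones. The age difference itself differed between the stages for 1896 genes (12.4%), more positive in multinucleated cultures for 1152 (7.52%) and more negative for 744 (4.86%). The 2 contrasts share no library.

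Many interferon-stimulated and NRF2 genes differed by age at both stages. At 2 days, 32 of 49 interferon genes were higher and 1 lower (median 0.45), and 16 of 28 NRF2 genes were lower (median -0.24). The difference between stages passed for 4 and 7 members of these lists. Irf7 rose by 0.80 at 2 days, and Hmox1 fell by 0.92 (edgeR adjusted p = 9.8e-05 and 1.9e-12). Dcn fell by 1.81 at 2 days as well, and its stage difference was -0.05 (edgeR adjusted p = 0.93). Marco, Ccl2 and Cdkn2a also fell at 2 days, by 1.02, 0.79 and 1.49.

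The age difference of many hypoxia and matrix genes differed between the stages. At 2 days 1 of 32 glycolysis and hypoxia genes was higher and 11 were lower (median -0.17), and for 21 members the age difference was more positive in multinucleated cultures. Vegfa fell by 0.44 at 2 days, against a rise of 0.75 later, a difference between stages of 1.19 (edgeR adjusted p = 1.6e-07). None of the stromal markers was higher at 2 days and 12 were lower (median -0.66), and 13 of 22 passed the stage difference, all toward multinucleated cultures. Col1a1 stood at 979 CPM (20 months) and 935 CPM (6 months) at 2 days and at 926 and 367 CPM in multinucleated cultures, so that the 6-month multinucleated group was the low one of the 4.

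The osteoclast lists differed between stages in more than one direction. At 2 days 8 of 22 resorption genes were higher at 20 months and none lower, and the difference between stages was negative for 7 members and positive for 2. Of 30 tested genes of podosomes and the actin ring, 3 were higher and 9 lower at 2 days, and the difference between stages was positive for 7 and negative for 3. In RANK signalling it was positive for 0 and negative for 1 of 29, with a median of 0.08. Calcr was 1.31 higher at 2 days and level later (stage difference -1.33, edgeR adjusted p = 1.1e-05), and Car2 was 0.89 higher at 2 days (stage difference -0.81, edgeR adjusted p = 3.5e-06). Ctsk rose by 0.34 at 2 days (edgeR adjusted p = 0.0016), but its stage difference of -0.25 did not pass (edgeR adjusted p = 0.15). Ribosome biogenesis genes were lower at 2 days for 11 of 30 members, with a median of -0.08 against -0.29 later, and 10 passed the stage difference.

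**Figure D4:**
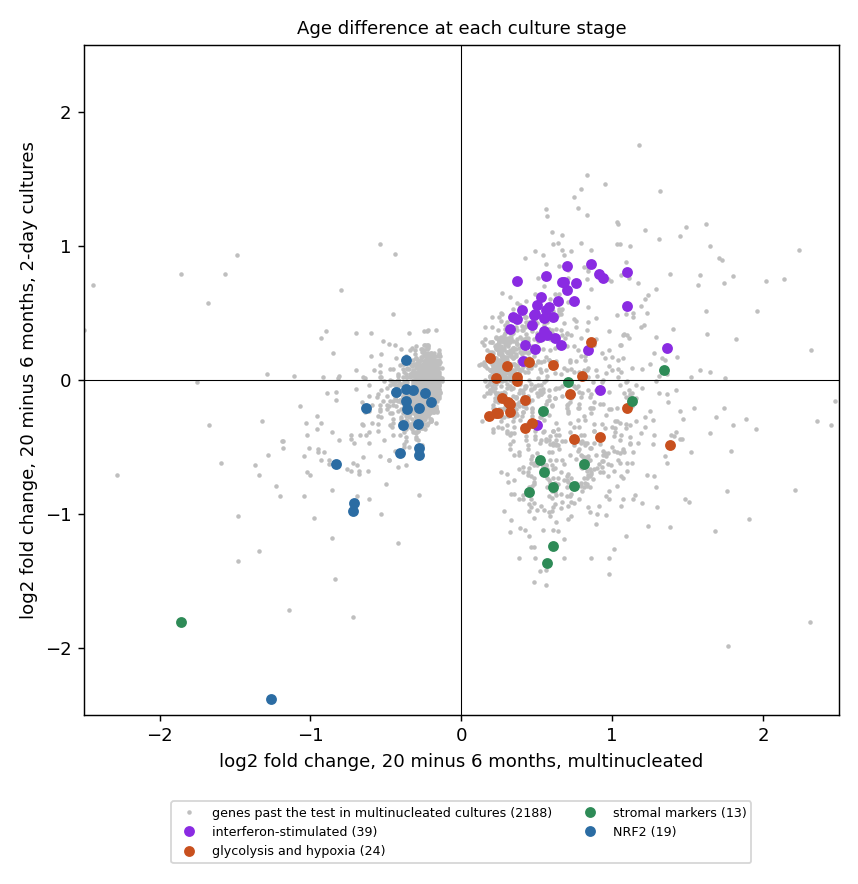
The log2 fold change of 20 against 6 months in multinucleated cultures (x axis) and in 2-day cultures (y axis) for the 2188 genes past the test in multinucleated cultures, with members of 4 lists coloured and 16 genes outside the axes. Of the called interferon-stimulated genes 37 of 39 lie above 0 at 2 days, of the NRF2 genes 18 of 19 lie below 0, and of the stromal markers 12 of 13 lie below 0.

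**Figure D5:**
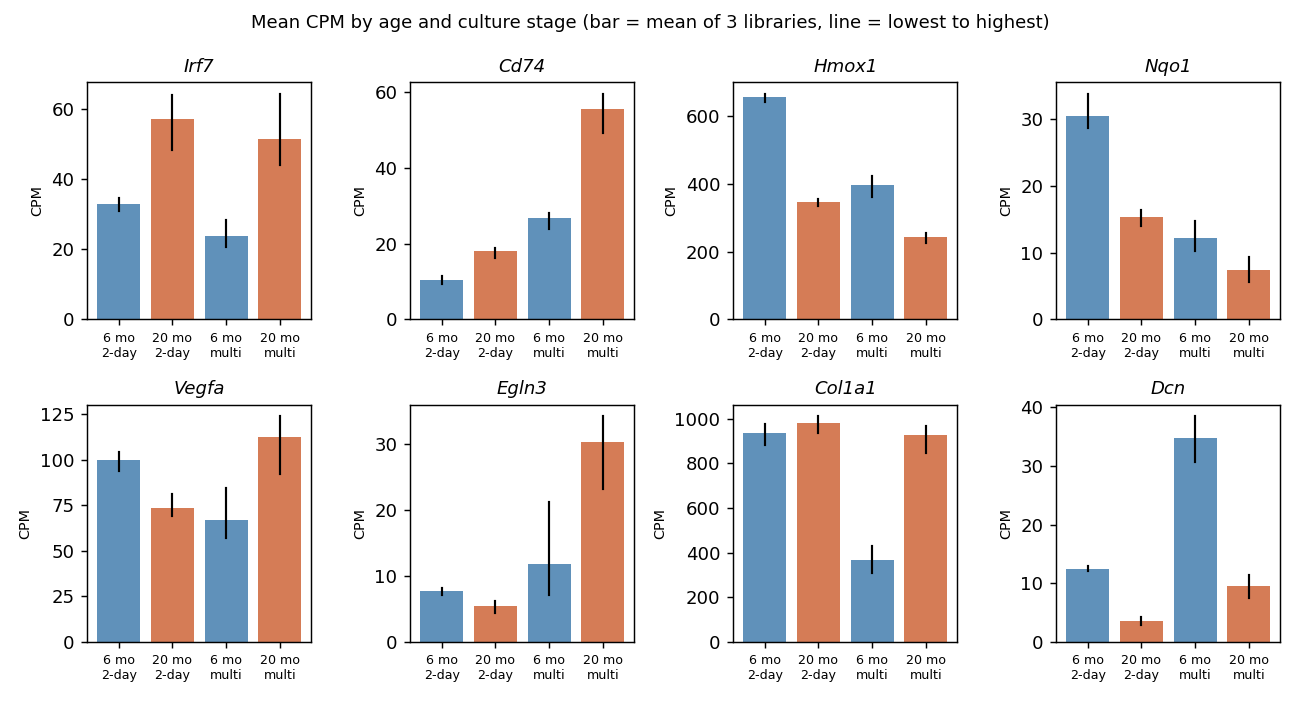
Mean TMM-scaled CPM of 8 genes by donor age and culture stage (bars are means of 3 libraries, lines run from the lowest to the highest library). Irf7 is higher and Hmox1 lower at 20 months in both stages, Vegfa reverses between stages, and Col1a1 is lowest in the 6-month multinucleated cultures (367 CPM).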

How the data were processed

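Per the labels' protocols, oligo(dT) beads enriched polyadenylated RNA before library construction and Illumina sequencing. The deposited values are whole-number counts per gene, not normalized. Per the file headers, read pairs aligned with STAR were counted over exons with featureCounts 1.6.0 and the Ensembl 88 annotation of GRCm38, with no strand option recorded, whereas the submitters' processing notes name HTSeq and mm10. The headers were followed.

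All 30 libraries were fitted together with 1 coefficient per group (R 4.3.3, edgeR 4.0.16, filterByExpr, TMM, quasi-likelihood test, Benjamini-Hochberg adjustment over 15310 genes, 35376 removed). Fold changes are edgeR log2 values of 20 minus 6 months with their standard errors. The difference between culture stages was a contrast in the same fit. On simulated counts of this comparison over 15099 genes, the test recovered 86% of 100 genes changed 1.5-fold and 95% of 100 changed 2-fold, with 7 false calls. The simulation gave all genes the same spread and changed only genes above 1 CPM. It therefore does not measure recovery or false calls for genes with other spread, nor recovery at lower counts.

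Named genes were the 15 with the largest change in each direction (adjusted p under 0.05, at least 5 CPM in either age, no overlap, no predicted-gene name), up to 4 called members of each list at 5 CPM or more, and a fixed osteoclast and telomere panel. Some items these rules select are not reported here. Others are marked in the text as chosen after their values were seen. The members and lists were chosen with earlier results of these data known. Promoters came from RefSeq (GRCm38.p6), where 10871 of 15283 tested symbols matched. No replicates were duplicates: chi-square per degree of freedom between them was 2.70 to 4.24 over genes of at least 50 counts. Alternatives were DESeq2 1.42.0, other scaling, filter, fold threshold and library choices.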

Additional observations from a re-analysis of the deposited data

Results flagged for a closer look

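The age difference at 20 against 6 months differed between multinucleated and 2-day cultures for 1896 of 15310 genes (12.4%) by edgeR's test of the difference. Among them were 53 of the 111 named genes examined. Many of these were named for their change in the multinucleated libraries, which also enter this contrast. Their share is therefore not comparable with that of all genes. Values below are the log2 difference between the stages, positive where the change with age was more positive in multinucleated cultures. Groups of 3 libraries were not examined for single outlying samples.

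These genes had positive values. Collagens and matrix genes had Col1a1 at 1.27, Col1a2 at 1.29, Col5a1 at 1.45, Col2a1 at 1.75 and Adamts1 at 1.2. From the osteoclast resorption list, Mmp14 stood at 0.54 and Src at 0.29, and from the repressors of osteoclast formation, Ndrg1 at 0.49 and Zfp36 at 0.48. Hypoxia genes had Egln3 at 1.87, Ddit4 at 1.35, P4ha2 at 1.31, Bnip3 at 0.58 and Vegfa at 1.19. Signalling and metabolic genes had Egr1 at 1.65, Wnt5a at 1.42, Bmpr1a at 0.74, Phgdh at 1.05, Dbp at 0.65, Cxcr4 at 0.64 and Cdkn2a at 0.64. Immune genes had Ifi44 at 1.11, C3 at 0.38, H2-Ab1 at 0.86, H2-Q6 at 1.16 and H2-Q7 at 1.26. Others were Aqp1 at 2.18, Sytl2 at 1.97, Mid1 at 1.03, Arhgef18 at 0.98 and Aldh1l2 at 0.84.

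The following genes had negative values. Other osteoclast genes had Calcr at -1.33, Car2 at -0.81, Itgav at -0.46, Dcstamp at -0.44, Mitf at -0.37, Itgb3 at -0.33, Atp6v1h at -0.32, Atp6v0d2 at -0.31, Cd44 at -0.28 and Rcan1 at -0.25. Lysosomal genes had Lipa at -0.47 and Ctss at -0.24. Antioxidant genes had Osgin1 at -0.43, Gclm at -0.34 and Prdx1 at -0.31. Growth and division genes had Cdc6 at -0.37, Dkc1 at -0.33, Nop56 at -0.32, Nolc1 at -0.25 and Ccnb1 at -0.22. Nptx1 stood at -0.67 and mt-Te at -1.24.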

How the results depend on the processing

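The counts of 1132 higher and 1056 lower genes changed most with the fold required: against a fold of 1.5 they were 76 and 9. With the 6 libraries alone, 1691 were higher and 1641 lower. With the title numbers as a replicate block 542 and 339 were called, of which 869 were also called without the block in the same direction. Number 1 occurs only at 20 months and number 3 only at 6 months, so the block took those libraries out of the age contrast. It thus compared only replicates 2 and 4 of each age. Libraries with equal numbers did not deviate together (correlations -0.04 and -0.03 over 8793 genes). Only replicates 2 and 4 could be compared in this way, which cannot settle whether equal numbers mark a shared batch or day. The libraries were treated as unpaired. Among the named genes, the block ended 16 calls (Dcstamp, Nfatc1, Itgav, Src, Cd44, Mitf, Ctss, Zbp1, Ifit1, Isg15, mt-Nd4, Id1, Zfp36, Prdm1, Fosl2 and Cxcl16) and put Calcr at 0.015. The fit on the 6 libraries alone added 7 calls (Ctsk, Ocstamp, Oscar, Csf1r, Rsad2, Cxcl10 and Mx1). DESeq2 added Csf1r, and the absence of a filter added Rsad2, Cxcl10 and Mx1. Leaving out 1 library gave 779 to 1040 higher and 560 to 907 lower genes. The lower genes numbered 599 without 6-month replicate 3, 663 without 6-month replicate 4, 653 without 20-month replicate 1 and 560 without 20-month replicate 4. DESeq2 called 1098 and 1122, and the other scaling and the absence of a filter kept both counts within 1.5 times. The 1896 genes that differed between stages became 2868 with 12 libraries only and 1296 to 1903 without 1 library. Genes that were not called changed sign without 1 library, over ranges of -0.078 to 0.043 for Calcr, -0.061 to 0.0053 for Itgb3, -0.025 to 0.024 for Atp6v0d2, -0.073 to 0.024 for Cdkn1a and -0.065 to 0.866 for Tert. The fold threshold of 1.5 ended 62 of the named calls, and the cause of each change was not tested. Tert rested on 23 and 17 counts in all, and Terc on 1 and 0.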

Other observations

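Genes of MHC class I presentation, a set put together after the values were seen, also stood higher at 20 months. Of 22 tested in multinucleated cultures, 17 were higher and none lower, with a median log2 fold change of 0.33, and at 2 days 9 were higher. B2m, the shared light chain of class I molecules, was at 905 ± 53.9 CPM against 739 ± 24.3 CPM (SD, n = 3; 0.29, edgeR adjusted p = 0.0069). The classical heavy chains H2-K1 and H2-D1 rose by 0.35 and 0.27, and the peptide transporter Tap1 rose by 0.52, from 39.4 ± 2.99 to 56.4 ± 2.79 CPM. Nlrc5, the transactivator of class I genes, rose by 0.41 and the immunoproteasome subunit Psmb9 by 0.40, while Psmb8 at 0.17 and Psmb10 at 0.09 did not pass. Heavy chain genes of this family are similar in sequence, so that their single values are uncertain.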
